A study of Saccharomyces cerevisiae with 72 samples.

Results

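The comparison described here is the response of budding yeast (Saccharomyces cerevisiae) lacking both GCN4 and GLN3 to the triazole compound 3-AT (3-aminotriazole). Its members are 8 of the 72 Affymetrix arrays of the series, chosen by their titles: 4 arrays of the gcn4 gln3 deletion strain KY643 after 1 h in 10 mM 3-AT and 4 arrays of the same strain untreated. The same 3-AT and untreated arrays of 3 other genotypes, with 4 arrays a group, were used to set this response against others: the gcn4 deletion strain KY656, the gln3 deletion strain KY640 and the wild-type strain KY652. Every group was grown on synthetic medium holding 2% dextrose, 0.5% ammonium sulfate and the amino acids other than histidine, so the untreated cells too were making their own histidine. The labels do not say whether replicates were separate cultures, and the p-values therefore measure the spread between these samples, which may be technical.

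In yeast, 3-AT is a competitive inhibitor of His3, an enzyme of histidine synthesis, and so starves cells of histidine. Uncharged tRNA activates the kinase Gcn2, whose phosphorylation of the initiation factor eIF2 lets the GCN4 mRNA be translated, and Gcn4 then activates biosynthetic genes of most amino acids, a program called general amino acid control. Gln3 is a GATA factor that activates genes for the use of poor nitrogen sources and is held in the cytoplasm by Ure2 when good nitrogen sources are present. The strain with both deletions shows which transcript levels still changed in 3-AT with neither activator present.

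GCN4 and GLN3 were checked first. The GCN4 probe set (YEL009C) read 44.9, 64.3, 24.3 and 39.7 in 3-AT and 22.9, 23.9, 23.4 and 11.3 untreated in gcn4 gln3, and none of these 8 values was above array background, taken as the 30th percentile of the array. Wild-type arrays read 15584, 9603, 16721 and 17729 in 3-AT and 15396, 16907, 14258 and 15559.7 untreated for the same probe set. GLN3 (YER040W) was likewise below background on all 8 gcn4 gln3 arrays and read 669.8, 759, 869.6 and 578 in wild-type 3-AT arrays and 236, 183, 194 and 229 in untreated ones. Both probe sets therefore went with the genotype in the labels. HIS3 (YOR202W), the gene of the enzyme that 3-AT inhibits, read 2209, 2776, 2590.2 and 2719 in gcn4 gln3 in 3-AT and 1459, 2235, 1913 and 2099 untreated. The HIS3 groups overlapped, with 3-AT replicate 1 below the highest untreated array, and the change of 0.43 ± 0.14 on the log2 scale (SE of the fit, n = 4 a group; limma, adjusted p = 0.0095) compares with 2.28 in wild type. Under median centring of the arrays, described next, the HIS3 change in gcn4 gln3 was no longer called.

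The values are linear MAS5 signals that had been scaled so that each array's trimmed mean lay at about 1001. The 3-AT arrays of gcn4 gln3 had higher medians than the untreated ones, at 375 to 399 against 286 to 310, and a higher background, at 99.3 to 113 against 66.0 to 78.7. A change on this scale is thus relative to the array mean: the median change of all 6599 probe sets tested was 0.17, against -0.21 after centring the arrays on a common median and -0.04 after quantile normalization. Counts in both directions for the gcn4 gln3 response are therefore given with the number called in the same direction under all 3 scalings. Most counts for other genotypes and for differences between responses lack that number and may depend on the scaling. Actin probe sets give a 3'/5' ratio, which rises as RNA breaks down or labelling falls short; it was 2.75 on gcn4 gln3 3-AT replicate 1 and 4.47 on untreated replicate 1, and 1.76 to 1.88 and 1.45 to 1.78 on the other arrays of those groups. In total RNA from bulk cultures, a lower level per cell and fewer cells that hold the transcript cannot be told apart.

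**Figure D1:**
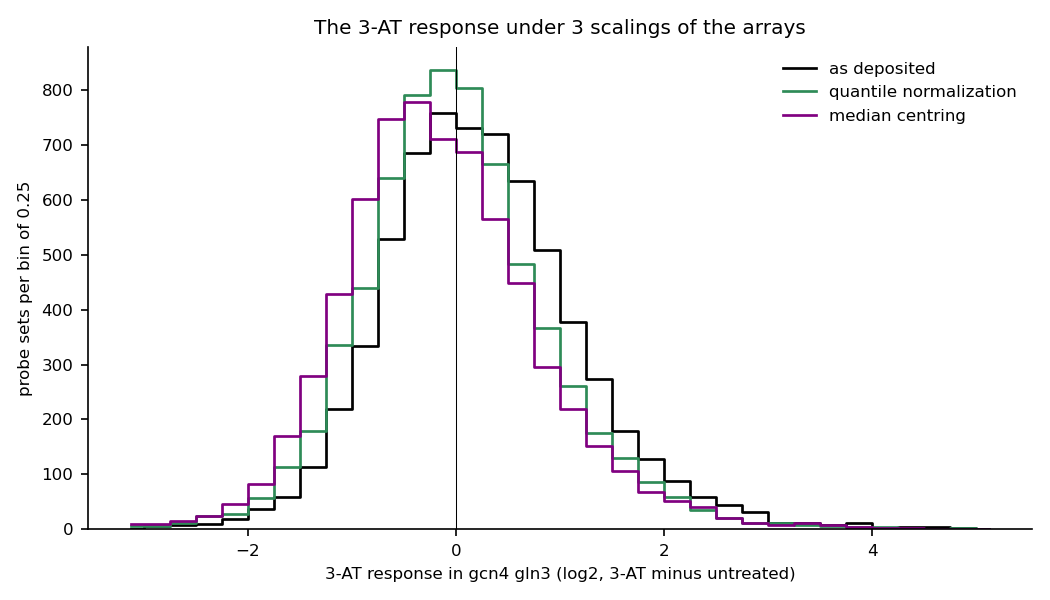
Distribution of the 3-AT response of gcn4 gln3 (3-AT minus untreated, log2, bins of 0.25) over the 6599 probe sets tested, under the deposited scaling, median centring and quantile normalization. The median lies at 0.17, -0.21 and -0.04, so the balance of rises and falls depends on the scaling.

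In the fit over 32 arrays, most of the probe sets tested were called changed in gcn4 gln3 after the hour in 3-AT. Of 6599 probe sets tested with limma over the 32 arrays, 4054 (61.4%) were called at a Benjamini-Hochberg adjusted p under 0.05, with 2516 (38.1%) higher and 1538 (23.3%) lower in 3-AT. The split was 1549 higher and 2592 lower after median centring and 1832 higher and 2040 lower after quantile normalization. Under all 3 scalings together 1468 (22.2%) were higher and 1446 (21.9%) lower. The 3-AT and untreated arrays did not overlap for 3291 probe sets (49.9%). In a fit over all 72 arrays, which had a wider residual spread, 2853 were called. Only part of the genes named here was checked for lost calls. Among those checked, the calls of HIS3, HIS4, ARG1, ILV6, HSF1, HXK1, PCL5, RPS9A and URE2 were lost. The median residual SD was 0.400 in that fit and 0.264 over the 32 arrays. Without 3 of the 72 arrays, of groups not compared here and with ratios of 3' to 5' actin signal of 43.2 to 229.5, it was 0.271 and 4031 were called, and of these genes only PCL5 lost its call. With so many calls, the count of called members in a group of genes is to be read against these percentages.

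Protein quality control genes, an amino acid permease gene and aromatic amino acid breakdown genes were among the 15 largest rises. BTN2 (YGR142W), which sorts misfolded proteins into deposits, read 8242, 7288, 6049 and 7516 in 3-AT and 345, 275, 484 and 221 untreated, a change of 4.51 ± 0.29. All 4 BTN2 3-AT arrays stood far above the untreated ones. ROQ1 (YJL144W), whose product redirects the ubiquitin ligase Ubr1 to misfolded proteins, read 7431, 6225, 9378 and 7904 in 3-AT and 171, 187, 533 and 271 untreated and had the largest rise, 4.88 ± 0.37. DIP5, the permease for glutamate and aspartate, read 2613, 2184, 2119 and 2484 in 3-AT and 128, 123, 108 and 111 untreated. The groups did not overlap for any of these 3 genes. ADH2, the glucose-repressed alcohol dehydrogenase, rose by 3.96 ± 0.18. Next came TIR1, a cell wall mannoprotein gene, with 3.79 ± 0.18, and ROX1, the repressor of hypoxic genes, with 3.19 ± 0.21. The polyamine transporter gene TPO4 (3.37 ± 0.28), the nitroreductase-like FRM2 (3.26 ± 0.23) and the uncharacterised YBL086C (3.09 ± 0.27) completed the largest rises outside the gene groups described below, which hold SSA3, CUR1, ARO10, ARO9, MET2 and HSP42.

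HXT2 (YMR011W), a high-affinity glucose transporter gene, had the largest fall, with 291, 248, 277 and 238 in 3-AT and 2546, 2708, 1146 and 2117 untreated (-2.95 ± 0.28). COX17, a copper chaperone for cytochrome oxidase, fell by 2.90 and read 339.6, 288, 339 and 297 in 3-AT against 2962, 2054, 2303 and 2172 untreated. SIL1, the nucleotide exchange factor of the endoplasmic reticulum chaperone Kar2, read 355, 344, 467 and 385 in 3-AT and 2814, 2296, 2719.8 and 2751 untreated (-2.78 ± 0.14). In each of these 3 genes every 3-AT array lay below every untreated array. Further large falls were those of ULI1 (-2.59), the proteinase B inhibitor gene PBI2 (-2.57), the ubiquitin receptor gene DSK2 (-2.53), MIX23 (-2.41), the acid phosphatase gene PHO3 (-2.33) and MOG1 (-2.25), which acts in nuclear protein import. RDN37-1, a precursor of ribosomal RNA encoded in many near-identical copies, had a change of -2.39, and that value cannot be assigned to 1 copy. The remaining large falls, of BIO2, BIO5, MRPL51, MRPS8 and COX8, belong to groups described below.

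Some genes were above background only in 3-AT, so only a lower bound of the fold can be given. PRM1, a pheromone-regulated membrane protein gene needed for cell fusion in mating, read 546, 949, 1023 and 879 in 3-AT and 59.1, 58.9, 65.1 and 47.3 untreated, at least 11.1-fold higher in 3-AT. FUS1, another mating fusion gene, read 562, 571, 371 and 489 in 3-AT and 55.7, 33.7, 52.7 and 47.4 untreated, at least 6.60-fold higher. The bounds of YAR068W, AIM17 and FCY22, a cytosine permease family gene, were at least 10.1-fold, 7.39-fold and 5.33-fold higher. Among probe sets of 1 named gene, 77 were above background in 3-AT and on no untreated array, 73 of them called with a bound. Another 85 were above background only in untreated arrays, 24 of them called with a bound. Background was higher on the 3-AT arrays, so genes among the 85 can still have the higher signal in 3-AT. JJJ2 was one, with means of 91.8 in 3-AT and 62.0 untreated, a change that was not called.

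Mating type is not given in the labels, and its markers were read in every group. The 4 probe sets of alpha-specific genes summed to 22633 to 25700.5 in gcn4 gln3 in 3-AT and 23603 to 32083 untreated, while the 7 of a-specific genes summed to 850.006 to 949 in 3-AT and 323 to 411 untreated. Of the a-specific genes MFA1, an a-factor gene, was above background on 3 of 4 arrays in 3-AT and on no untreated array, at least 2.29-fold higher, and STE6, the a-factor exporter gene, rose by 1.70 ± 0.21. The alpha-factor gene MF(ALPHA)2 fell by 2.47 and MF(ALPHA)1 changed by -0.32 ± 0.14, not called. Of the 4 alpha-specific genes 2 were called higher and 1 lower (2 and 1 under all 3 scalings, median 0.32). All 4 tested a-specific genes were called higher, 2 of them under all 3 scalings. Of the 7 a-specific probe sets only 2 in 3-AT and 1 untreated were above background on all 4 arrays. The a-specific sums thus also hold signals near background, which was itself higher on the 3-AT arrays. The a-specific sums in wild type lay at 727 to 747 in 3-AT and 328 to 522 untreated.

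**Figure D2:**
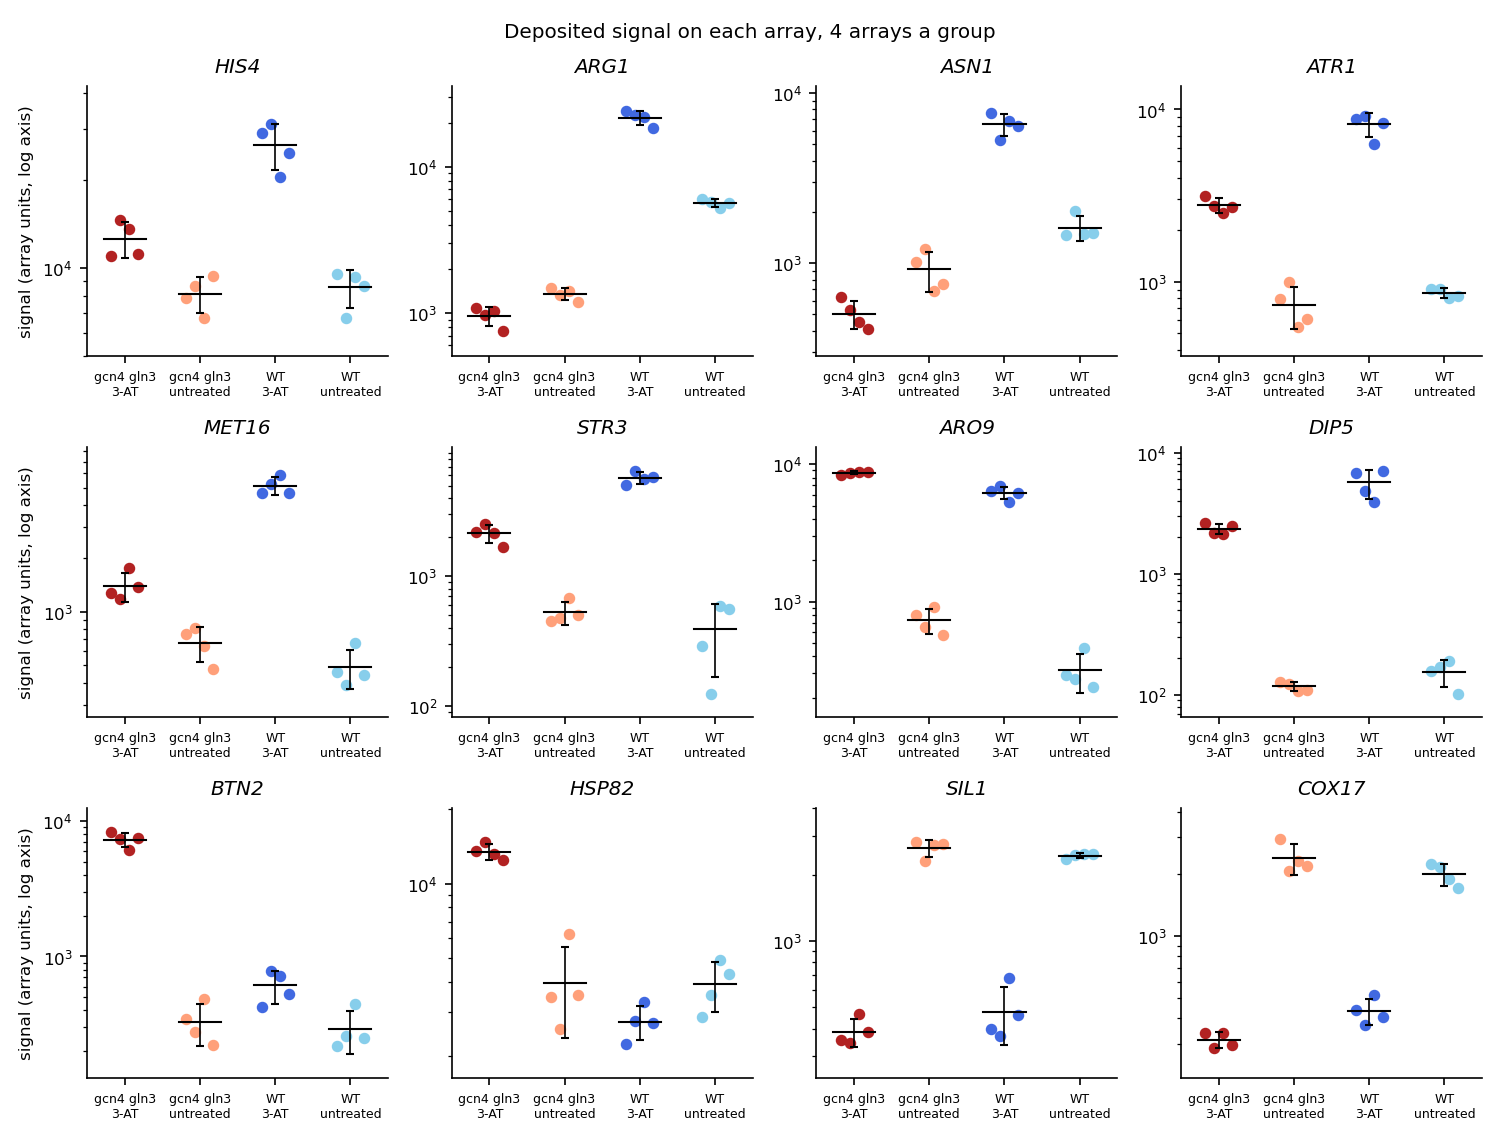
Deposited MAS5 signal (log axis) of 12 genes on the 4 arrays of gcn4 gln3 in 3-AT, gcn4 gln3 untreated, wild type in 3-AT and wild type untreated; points are arrays, and the line and bar are the mean and SD. BTN2, ARO9 and DIP5 are separated between 3-AT and untreated in gcn4 gln3, ARG1 and ASN1 read lower in 3-AT in gcn4 gln3 and higher in wild type, and SIL1 and COX17 read lower in 3-AT in both genotypes.

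Amino acid biosynthetic genes, the main targets of Gcn4, did not rise as a group in gcn4 gln3. HIS4 (YCL030C), which encodes a trifunctional histidine enzyme, read 10999.6, 14582, 13555 and 11155 in 3-AT and 7865, 8643, 6710.5 and 9363 untreated in gcn4 gln3, and 29015, 31241, 20599.9 and 24910.5 in 3-AT and 9554, 6721, 9324 and 8678 untreated in wild type. The gcn4 gln3 change was 0.63 ± 0.14 and the wild-type change 1.62 ± 0.14, a difference of -0.99 ± 0.20 (limma, adjusted p = 8.3e-04). After median centring the HIS4 change in gcn4 gln3 was not called (adjusted p = 0.21). Of the 7 histidine genes 4 were called higher in gcn4 gln3 and none lower, with a median change of 0.41, but HIS5, the aminotransferase gene, was alone in being called higher under all 3 scalings (1.05 ± 0.17). All 7 were higher in 3-AT in wild type, with a median of 1.74, where 55.5% of all probe sets were called (31.9% higher and 23.7% lower). The 2 responses differed for 6 of the 7, each time with gcn4 gln3 lower, as did 6.59% of all probe sets; 15.3% differed in all, 8.73% with gcn4 gln3 higher.

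Arginine genes changed far less than in wild type. ARG1 (YOL058W), argininosuccinate synthetase, read 1077, 969.7, 1035 and 750.03 in 3-AT and 1469.98, 1319, 1419 and 1181 untreated in gcn4 gln3, and 23932, 22602, 21789 and 18462 in 3-AT and 6015, 5769, 5211 and 5643 untreated in wild type. Every 3-AT array of gcn4 gln3 lay below every untreated one and in wild type above, but the gcn4 gln3 change of -0.50 ± 0.17 (limma, adjusted p = 0.012) was not called without 3-AT replicate 4 (adjusted p = 0.062); that of wild type was 1.93 ± 0.17. Of 8 tested arginine genes of 10 listed, 4 were called higher and 1 lower, none higher under all 3 scalings, with a median of 0.41 against 2.49 in wild type. All 8 differences from wild type were called with gcn4 gln3 lower. Untreated gcn4 gln3 was already below untreated wild type for 5 of the 8, as it was for 2.92% of all probe sets (1.39% were above).

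In lysine synthesis the genes were divided. LYS1, the last enzyme of the pathway, rose by 1.23 ± 0.13, and LYS5, which activates Lys2, by 0.85 ± 0.13, while LYS20, homocitrate synthase of the first step, read 6945, 5441, 5806 and 5514 in 3-AT and 12358, 11301, 7558 and 10923 untreated and fell by 0.81. LYS20 rose by 1.56 ± 0.16 in wild type. In all, 3 of the 8 lysine genes were called higher and 3 lower (2 and 3 under all 3 scalings; median -0.33), all 8 were higher in wild type, and 7 differences were called with gcn4 gln3 lower.

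Branched-chain and aromatic genes, which rose in wild type, had calls in both directions in gcn4 gln3. Of 12 branched-chain genes 2 were higher and 5 lower in gcn4 gln3 (none and 5 under all 3 scalings; median -0.26), all 12 were higher in wild type (median 1.37), and all 12 differences were called with gcn4 gln3 lower. Over all 72 arrays 2 branched-chain genes were higher and 1 lower in gcn4 gln3. ILV6, the regulatory subunit of acetolactate synthase, read 707, 848, 740.5 and 996 in 3-AT and 1076, 1822, 1388 and 1808 untreated in gcn4 gln3, with a change of -0.87 ± 0.14 against 1.65 ± 0.14 in wild type. LEU9, an isopropylmalate synthase, changed by -0.75 ± 0.14 in gcn4 gln3 and by 1.31 ± 0.14 in wild type. Of 13 aromatic genes 2 were higher and 4 lower (none and 4 under all 3 scalings; median 0.00), against 11 higher and none lower in wild type, and the difference was called with gcn4 gln3 lower for 10 and higher for 1. ARO2, chorismate synthase, changed by -1.25 ± 0.15 in gcn4 gln3 against 0.40 ± 0.15 in wild type. The DAHP synthase genes ARO3 and ARO4 fell by 0.62 and 1.16 in gcn4 gln3.

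Asparagine synthetase genes fell in gcn4 gln3. ASN1 (YPR145W) read 629, 526, 453 and 411 in 3-AT and 1015, 1215, 685 and 755 untreated in gcn4 gln3, and 7594, 5292, 6879 and 6379 in 3-AT and 1462, 2011, 1490.1 and 1505 untreated in wild type. Neither pair of groups overlapped, and they stood in opposite order, with changes of -0.84 ± 0.17 and 2.02 ± 0.17 and a difference of -2.86 ± 0.24 (limma, adjusted p = 7.5e-10). Its isoenzyme gene ASN2 fell by 1.52 in gcn4 gln3. Of the 16 genes of the aspartate family and of serine and glycine synthesis 1 was higher and 9 lower in gcn4 gln3 (1 and 8 under all 3 scalings; median -0.44), where wild type had 12 higher and 1 lower. The homoserine kinase gene THR1 fell by 1.14. The exception was SER3, phosphoglycerate dehydrogenase, which read 903, 976, 873 and 668 in 3-AT and 120.5, 123, 172 and 106 untreated in gcn4 gln3 (2.72 ± 0.18); it rose by 1.93 ± 0.18 in wild type.

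Genes of the Gcn4 circuit and others often used to report Gcn4 activity were in part still higher. ATR1 (YML116W), an exporter that confers resistance to 3-AT, read 3143, 2758, 2491 and 2697 in 3-AT and 788, 993, 544 and 607 untreated in gcn4 gln3, without overlap, and its change was 1.95 ± 0.16 against 3.24 ± 0.16 in wild type. SNZ1, of vitamin B6 synthesis, rose by 1.21 ± 0.13 against 3.08 ± 0.13 in wild type. PCL5, the cyclin that directs Gcn4 degradation, read 492, 599, 399 and 475 in 3-AT and 404, 427, 345 and 303 untreated; its change of 0.41 ± 0.17, against 2.62 in wild type, was not called in gcn4 gln3 after median centring. The metallothionein gene CRS5 (1.09 ± 0.13) and CDC34 (0.97 ± 0.19), the ubiquitin-conjugating enzyme that acts on Gcn4, rose. Of the 12 genes of this list 8 were higher and 2 lower in gcn4 gln3 (4 and 2 under all 3 scalings), and the difference from wild type was called with gcn4 gln3 lower for 4 and higher for 1. These counts are not limited to genes above background. SNO1 and the deleted GCN4 were called higher although no gcn4 gln3 array was above background for either, and neither call held under all 3 scalings.

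**Figure D3:**
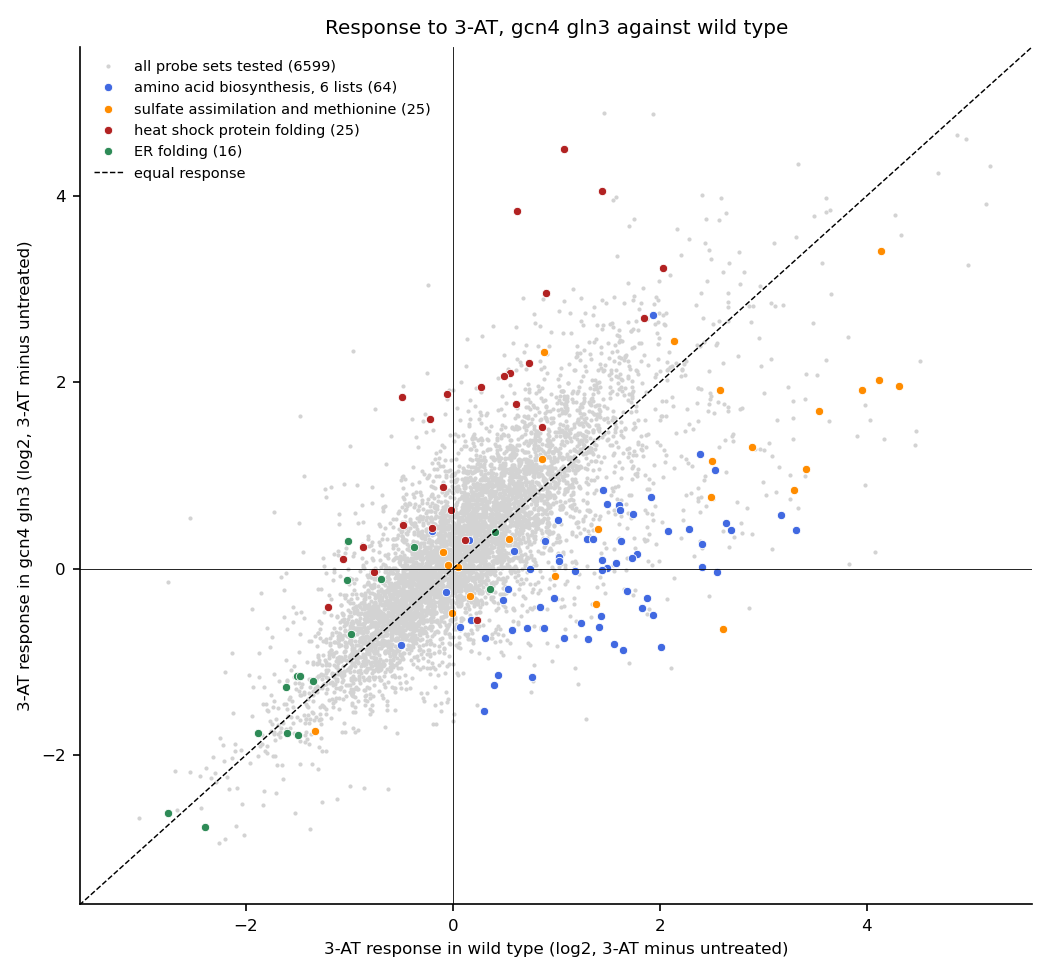
3-AT response (log2) of gcn4 gln3 on the y axis against that of wild type on the x axis for 6599 probe sets (grey), with 64 amino acid biosynthesis genes in blue, 25 sulfur genes in orange, 25 heat shock genes in red and 16 endoplasmic reticulum folding genes in green. Biosynthesis genes lie mostly below the dashed line of equal response, heat shock genes mostly above it, and endoplasmic reticulum folding genes mostly below 0 on both axes.

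Genes of sulfate uptake and reduction and of methionine synthesis were still higher in 3-AT in gcn4 gln3 for 14 of 25, and most differences from the other genotypes that were called had gcn4 gln3 lower. Cells take up sulfate, activate it with ATP and reduce it to sulfide, which becomes homocysteine and methionine; the activator Met4 with its partners Met28, Met31, Met32 and Cbf1 drives these genes. Of the 25 genes of the list, 14 were higher and 4 lower in gcn4 gln3 (14 and 3 under all 3 scalings), with a median of 0.84. In wild type 18 were higher and 1 lower with a median of 2.14, in gcn4 20 and 1 with a median of 1.74, and in gln3 17 and 2 with a median of 1.58. The difference was called with gcn4 gln3 lower for 13 and higher for 1 against wild type, and lower for 13 and higher for 3 against gln3. Over all probe sets 63.9% were called in gcn4 (39.2% higher and 24.7% lower) and 50.7% in gln3 (31.9% higher and 18.8% lower).

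STR3 (YGL184C), cystathionine beta-lyase, read 2182, 2537, 2145 and 1686 in 3-AT and 448, 478, 683 and 499.7 untreated in gcn4 gln3, against 4357, 3169.8, 3294 and 3464 in 3-AT and 162, 151, 179 and 147 untreated in gcn4. Both genotypes were separated without overlap, and the change was 2.02 ± 0.28 in gcn4 gln3, 4.48 ± 0.28 in gcn4, 4.17 ± 0.28 in gln3 and 4.12 ± 0.28 in wild type. MET1, which makes the siroheme cofactor of sulfite reductase, changed by 1.91 ± 0.18 in gcn4 gln3, by 3.72 ± 0.18 in gcn4 and by 3.96 ± 0.18 in wild type. MET3, ATP sulfurylase of the first step of activation, changed by 1.16 ± 0.19 in gcn4 gln3 and by 2.95 ± 0.19 in gcn4. MET14, the adenylylsulfate kinase of the second step, read 2123, 1886, 1772 and 1982 in 3-AT and 2214, 2157, 2359.8 and 1556 untreated in gcn4 gln3, which overlapped and was not called (-0.08 ± 0.20), where gcn4 changed by 1.65 ± 0.20.

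The difference between gcn4 gln3 and gcn4 was called for 9 sulfur genes, each with gcn4 gln3 lower and each under all 3 scalings, against 0.455% of all probe sets lower and 0.0909% higher (0.379% and 0.0606% under all 3 scalings). These 9 were STR3 (difference -2.45 ± 0.40, limma adjusted p = 0.0011), MET1 (-1.81, 3.5e-04), MET3 (-1.79, 7.6e-04), MMP1 (-1.78, 0.022), MET14 (-1.73, 0.0011), SAM2 (-1.29, 0.041), MET16 (-1.16, 0.022), MET5 (-1.06, 0.0054) and MET10 (-1.06, 0.0026). The calls of SAM2, MET16 and MMP1 were lost when single gcn4 gln3 or gcn4 arrays were left out, those of MET1, SAM2 and MET16 when all 72 arrays entered the fit, and that of SAM2 without a filter on dim probe sets. The median difference over the 25 genes was -1.16, against 0.01 over all probe sets. Each of the 9 genes had a higher untreated mean and a lower 3-AT mean in gcn4 gln3 than in gcn4. Their smaller responses therefore hold a difference of the untreated level. STR3 averaged 527 untreated in gcn4 gln3 against 160 in gcn4, and 2138 against 3571 in 3-AT. MET10 averaged 730 against 387 untreated and 1803 against 1992 in 3-AT. These level differences were not tested.

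The remaining sulfur genes differed in pattern. SUL2, a sulfate permease gene, changed by 1.96 ± 0.32 in gcn4 gln3 and by 4.31 ± 0.32 in wild type. SUL1, the other sulfate permease gene, read 102, 83.8, 113 and 83.0 in 3-AT and 170.2, 153, 141 and 133 untreated in gcn4 gln3; its change of -0.65 ± 0.24 (adjusted p = 0.019) opposed that of 2.61 ± 0.24 in wild type and was not called without both replicate 1 arrays (adjusted p = 0.061). STR2, cystathionine gamma-synthase, rose by 0.84 ± 0.13 in gcn4 gln3 and by 0.50 ± 0.13 in gcn4, against 3.3 ± 0.13 in wild type and 3.07 ± 0.13 in gln3. MET2, homoserine acetyltransferase, read 2515, 2784, 3395 and 2845 in 3-AT and 146, 233, 729.7 and 213 untreated in gcn4 gln3 and had the largest rise of the list (3.41 ± 0.56). MMP1 and MHT1, which take up and use S-methylmethionine, rose by 2.44 ± 0.27 and 2.33 ± 0.32, while SAM2, S-adenosylmethionine synthetase, fell by 1.75. Of 6 regulator genes 5 were higher and none lower (4 under all 3 scalings; median 1.11), with MET32 at 2.66 ± 0.21, MET28 at 2.49 ± 0.37, the F-box gene MET30 at 1.22 ± 0.16 and CBF1 at 0.99 ± 0.22.

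**Figure D4:**
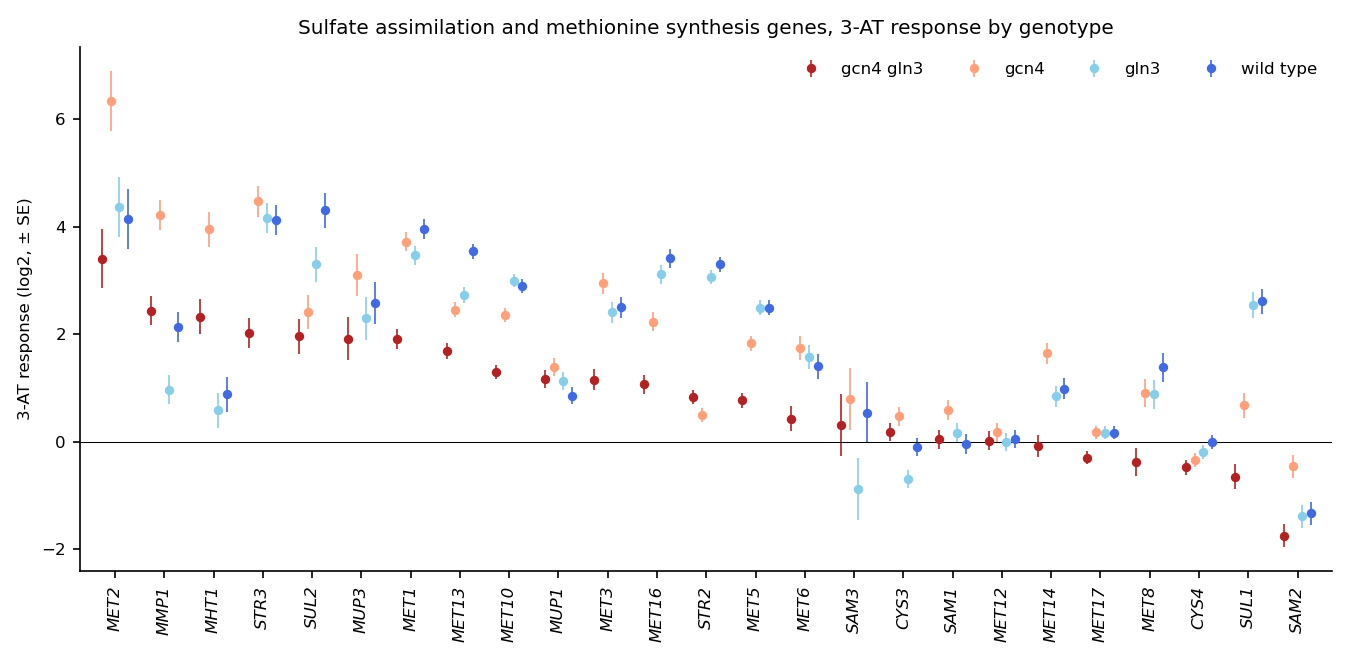
3-AT response (log2, mean and SE of the fit, 4 arrays a group) of the 25 sulfur genes in gcn4 gln3, gcn4, gln3 and wild type. STR3, MET1, MET3 and MET14 stand lower in gcn4 gln3 than in the 3 other genotypes, STR2 is low in gcn4 gln3 and gcn4, and SAM2 lies below 0 in all 4 genotypes.

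Genes for breaking down and taking up amino acids and other nitrogen sources were mostly higher in 3-AT although Gln3 was absent. Aro80 is the activator of aromatic amino acid breakdown, and of its 5 listed genes 4 were higher (3 under all 3 scalings; median 1.85). ARO9 (YHR137W), the aromatic aminotransferase II, read 8364, 8619.8, 8834 and 8786 in 3-AT and 799, 658, 907 and 570.2 untreated in gcn4 gln3, without overlap (3.58 ± 0.20). ARO10, the phenylpyruvate decarboxylase, rose by 3.80 ± 0.14, ESBP6 by 1.85 ± 0.11 and ARO80 itself by 0.94 ± 0.23, the last not under all 3 scalings. NAF1 changed by 0.02 ± 0.22. All 5 were called higher in wild type.

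Of the 14 permease genes listed as repressed by good nitrogen sources, 9 were higher and none lower in gcn4 gln3 (7 under all 3 scalings; median 0.96), and in wild type also 9 were higher (median 1.01). DUR3, the urea transporter gene, read 1470.1, 1497, 1325 and 1435 in 3-AT and 273, 205, 214 and 182 untreated, with a change of 2.73 ± 0.21. PTR2, the peptide transporter gene, read 2445, 3836, 3455 and 3153 in 3-AT and 292, 759, 923 and 519.7 untreated in gcn4 gln3. The 2 PTR2 groups did not overlap, and its change of 2.48 ± 0.24 was -0.09 in gln3, a difference of 2.57 ± 0.34 (limma, adjusted p = 2.1e-06). AGP3, an amino acid permease gene, was above background only in 3-AT, at least 2.06-fold higher. Among the others were the allantoate permease gene DAL5 (1.53 ± 0.16), the general amino acid permease gene GAP1 (1.47 ± 0.23) and the ammonium permease gene MEP2 (1.18 ± 0.21). The 3 probe sets of DAL5 gave changes of 1.53 to 1.91.

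The permease genes under the SPS sensor of extracellular amino acids did not follow this pattern. Of 14 genes of that list 5 were higher and 1 lower (5 and 1 under all 3 scalings; median 0.39), against 10 higher and 1 lower in wild type, and 5 differences were called with gcn4 gln3 lower. AGP1, a broad amino acid permease gene, read 427, 486, 675 and 699 in 3-AT and 355, 872, 460.3 and 492 untreated in gcn4 gln3, which overlapped (0.12 ± 0.24), and changed by 1.69 ± 0.24 in wild type. BAP2, for branched-chain amino acids, changed by -0.43 ± 0.22, not called, against 1.90 ± 0.22. TAT1, for tyrosine and branched-chain amino acids, read 653, 553, 577 and 565 in 3-AT and 1539, 1477, 1239 and 1458 untreated and fell by 1.28.

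Of 15 tested genes for nitrogen-repressed catabolic enzymes of 17 listed, 11 were higher and none lower (7 under all 3 scalings; median 0.91), and the difference from wild type was called for 1 in each direction. DAL7, malate synthase of allantoin use, rose by 2.26 ± 0.22, the allantoin genes DAL2 and DAL3 by 1.68 ± 0.23 and 1.67 ± 0.20, and PUT2, of proline use, by 1.24 ± 0.18. CHA1, the serine and threonine deaminase gene, read 1311, 967, 1301 and 948 in 3-AT and 611, 687, 311 and 499 untreated in gcn4 gln3 and 1860.3, 1843, 1786 and 1607 in 3-AT and 392, 254, 169 and 163 untreated in gcn4. Neither genotype had overlapping groups. The change of CHA1 was 1.15 ± 0.23 in gcn4 gln3 and 2.95 ± 0.23 in gcn4, a difference of -1.80 ± 0.32 (limma, adjusted p = 0.0035). Of 15 tested nitrogen regulators 8 were higher and 2 lower (4 and 2 under all 3 scalings), with UGA3, the activator of GABA use, at 1.82 ± 0.13 and GAT1, a second GATA activator, at 0.70 ± 0.13. UGA3 has 3 further probe sets, with changes of 2.10, 2.16 and, on a dim one, 0.47. PUT3, the activator of proline use, fell by 1.33 in gcn4 gln3, against a change of 0.75 ± 0.15 in wild type. The difference from wild type was called with gcn4 gln3 lower for 8 of the 15.

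Cytosolic protein folding genes rose in gcn4 gln3, most of them more than in wild type. Hsf1 is the activator of these chaperone genes. Of 25 listed genes 19 were higher and 2 lower in gcn4 gln3 (16 and 1 under all 3 scalings), with a median of 1.76, and in wild type 10 were higher and 5 lower with a median of 0.23. HSP82 (YPL240C), the inducible Hsp90 gene, read 13527, 14759, 13132 and 12438 in 3-AT and 3449.9, 2567, 6224 and 3529 untreated in gcn4 gln3, and 2224, 2762, 3297 and 2716 in 3-AT and 2881, 3529, 4917 and 4288 untreated in wild type. Only the gcn4 gln3 arrays had every 3-AT value above every untreated one, and the difference between the responses was 2.34 ± 0.36 (limma, adjusted p = 2.0e-05). SSA4, a stress-inducible Hsp70 gene, read 26074, 26904, 19185 and 18812 in 3-AT and 3029.7, 2014, 3743 and 3027 untreated and changed by 2.96 ± 0.18 against 0.90 ± 0.18 in wild type. STI1, a cochaperone that links Hsp70 to Hsp90, changed by 1.87 ± 0.16 against -0.06 ± 0.16.

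The same direction was found in small heat shock, disaggregase and cochaperone genes. CUR1, a paralog of BTN2, rose by 3.84 ± 0.28, HSP42 by 3.23 ± 0.31, the mitochondrial disaggregase gene HSP78 by 2.69 ± 0.25, the Hsp70 exchange factor gene FES1 by 2.21 ± 0.11 and the Hsp40 gene SIS1 by 1.95 ± 0.16. SSA3, whose sequence is close to that of SSA4, rose by 4.05 ± 0.26. HSP104, the cytosolic disaggregase gene, changed by 1.60 ± 0.18 in gcn4 gln3 and by -0.22 ± 0.18 in wild type. HSF1 itself fell by 0.55 and HSP10, the mitochondrial cochaperonin gene, by 0.41. The difference from wild type was called with gcn4 gln3 higher for 20 of the 25 and lower for 1 (17 and 1 under all 3 scalings). In gcn4 19 were higher and 2 lower (median 2.05), with no difference from gcn4 gln3 called. In gln3 12 were higher and 4 lower (median 0.32), and 18 differences from it were called with gcn4 gln3 higher.

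Of 25 general stress genes under Msn2 and Msn4, 20 were higher and 1 lower (14 and 1 under all 3 scalings; median 0.99), against 8 higher and 3 lower in wild type, and 8 differences were called with gcn4 gln3 higher. TPS2, trehalose phosphate phosphatase, read 8896, 9351, 6252 and 8567 in 3-AT and 954, 828, 1984 and 869 untreated, where untreated replicate 3 stood above the other 3. RTN2, a reticulon gene, rose by 3.00 ± 0.24 and TSL1, of trehalose synthesis, by 2.13 ± 0.39. The 1 gene called lower was SIP18, with a change of -1.36. In gcn4 17 of the 25 were higher and 1 lower (median 1.13), and the 1 difference called between gcn4 and gcn4 gln3 had gcn4 gln3 lower. Untreated gcn4 gln3 was below untreated wild type for 6 of the 25, as it was for 2.92% of all probe sets.

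RPN4, the activator of proteasome genes, and the proteasome went opposite ways. RPN4 read 5107, 4289.9, 5952 and 4729 in 3-AT and 1077, 1044, 877 and 554 untreated in gcn4 gln3, without overlap (2.54 ± 0.24; 0.95 ± 0.24 in wild type). Of the 33 genes of that list, which includes RPN4, it alone was higher and 21 were lower (1 and 20 under all 3 scalings; median -0.43), led by UMP1 (-1.34), RPN10 (-1.23), PRE10 (-1.09) and RPN6 (-1.04). Wild type had 1 higher and 20 lower.

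Among 14 genes of multidrug resistance under Pdr1 and Pdr3, 10 were higher and 1 lower (10 and 1 under all 3 scalings; median 1.23), with RSB1, a sphingoid base transporter gene, at 2.85 ± 0.35, the drug pump gene PDR5 at 1.29 ± 0.12 and ICT1 at -0.98 ± 0.19. Of 21 tested oxidative stress genes under Yap1, 10 were higher and 4 lower (9 and 2 under all 3 scalings; median 0.33). FRM2 changed by 3.26 ± 0.23 against 4.98 ± 0.23 in wild type, and OYE3, an NADPH oxidoreductase gene, by 1.47 ± 0.17 against -0.26 ± 0.17.

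Iron uptake genes under Aft1 and Aft2 were higher in gcn4 gln3 and in gcn4, and divided in wild type. Of 17 genes 13 were higher and none lower (10 under all 3 scalings; median 1.03), where wild type had 7 higher and 5 lower (median 0.12), and 10 differences were called with gcn4 gln3 higher. ENB1, the enterobactin transporter gene, read 7360.4, 8369, 8345 and 7155 in 3-AT and 1044, 1126, 1550.3 and 1269.96 untreated in gcn4 gln3. FRE2, a ferric reductase gene, read 866, 949, 953 and 629 in 3-AT and 171, 157, 162 and 137 untreated. Neither overlapped, and the changes were 2.66 ± 0.42 and 2.43 ± 0.18. ARN1, a siderophore transporter gene, changed by 1.49 ± 0.23 against -0.19 ± 0.23 in wild type. FIT2, a cell wall mannoprotein gene of iron retention, changed by 0.85 ± 0.30 against -1.23 ± 0.30, but the gcn4 gln3 call was lost after median centring. Untreated gcn4 gln3 was below untreated wild type for 6 of the 17 genes, which is part of the base from which these changes were measured. In gcn4 also 13 of the 17 were higher and none lower (median 0.99), with no difference from gcn4 gln3 called.

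Genes for folding in the endoplasmic reticulum fell. Of 16 genes 1 was higher and 10 lower in gcn4 gln3 (none and 10 under all 3 scalings; median -1.15), and in wild type 1 was higher and 13 lower (median -1.41). JEM1, an Hsp40 gene of this compartment, read 117, 80.1, 77.7 and 86.4 in 3-AT and 719, 564, 472 and 482 untreated and fell by 2.63, with 1 of its 4 values in 3-AT above background. Others were DER1 of protein degradation (-1.78 ± 0.15), the Hsp40 gene SCJ1 (-1.77 ± 0.12) and the disulfide isomerase gene PDI1 (-1.20 ± 0.13). KAR2, the Hsp70 of the compartment, read 22877, 18987, 17945 and 16747 in 3-AT and 21678, 16795, 21051 and 23612 untreated in gcn4 gln3, with overlap. Its change of -0.12 ± 0.15 was not called and differed from that of -1.02 ± 0.15 in wild type by 0.90 ± 0.21 (limma, adjusted p = 0.0035). HRD3 was the gene called higher (0.39 ± 0.14).

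Genes for making ribosomes and for mitochondrial translation and respiration were lower. None of 85 ribosome biogenesis genes was higher and 64 were lower, all 64 under all 3 scalings, with a median of -0.81. The largest falls were those of the RNA helicase gene HAS1 (-1.81 ± 0.30), RPF2 (-1.62 ± 0.24), GAR1 (-1.24 ± 0.21) and KRR1 (-1.24 ± 0.19). Wild type had 56 lower and none higher, and no difference between the responses was called in this list. Of 23 genes for subunits and factors of RNA polymerases I and III, 1 was higher and 14 lower (none and 14 under all 3 scalings; median -0.49), with RPC31 at -1.25 ± 0.18 and RRN3, an initiation factor of polymerase I, at 0.52 ± 0.16.

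Mitochondrial ribosomal protein genes had none higher and 59 of 73 lower, all 59 under all 3 scalings (median -0.93), led by RSM19, which read 109, 80.3, 133 and 111 in 3-AT and 805, 906, 719 and 678 untreated. After it came MRPL51 (-2.36 ± 0.20), MRPS8 (-2.35 ± 0.13) and MRPL19 (-2.03 ± 0.14). Wild type had 67 lower, and the difference was called for 2 with gcn4 gln3 higher and 3 with it lower. Of 37 respiratory chain and ATP synthase genes 2 were higher and 24 lower (none and 23 under all 3 scalings; median -0.50). COX8, a small subunit of cytochrome oxidase, read 1514, 1013, 1927 and 1113 in 3-AT and 6912, 6390.2, 7125 and 5964 untreated, and COX12 and QCR10 fell by 1.89 and 1.51. The 2 genes called higher were NDI1, the internal NADH dehydrogenase (0.67 ± 0.20), and CYT1, cytochrome c1 (0.52 ± 0.15).

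Cytosolic ribosomal protein genes had a smaller median fall than in wild type. Of 80 tested of 137 listed, 3 were higher and 36 lower (1 and 20 under all 3 scalings) with a median of -0.38, against 1 higher and 67 lower in wild type with a median of -0.76. The difference was called for 10 of the 80, each with gcn4 gln3 higher, but for only 3 under all 3 scalings. Over all probe sets 8.73% were called with gcn4 gln3 higher, and 5.03% under all 3 scalings. RPS28B (-1.48 ± 0.21), RPL36B (-1.03 ± 0.20), RPS28A (-1.03 ± 0.15) and RPS25B (-0.95 ± 0.13) had the largest falls. RPL15B (1.10 ± 0.17), RPS9A (0.58 ± 0.13) and RPL15A (0.45 ± 0.14) were the 3 called higher. Many of these genes are pairs with near-identical sequence whose probe sets may read both copies, and the RPS9A call was lost after median centring (adjusted p = 0.19).

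Aminoacyl-tRNA synthetase genes fell in gcn4 gln3 and in gcn4, and had calls in both directions in wild type. None of 19 was higher and 13 were lower, all 13 under all 3 scalings (median -0.65). Wild type had 6 higher and 7 lower, but 2 and 6 under all 3 scalings (median -0.01). The difference was called with gcn4 gln3 lower for 8. ILS1, the isoleucyl-tRNA synthetase gene, read 1751, 1397, 1211 and 1435 in 3-AT and 3430.5, 2580.2, 2535 and 2599.6 untreated in gcn4 gln3, and 3028, 2707, 3649.98 and 3469 in 3-AT and 1944, 2468, 2193 and 1688 untreated in wild type. DPS1, of aspartyl-tRNA, read 5372, 5389, 5663 and 5098 in 3-AT and 10500, 10123, 10882 and 10194 untreated in gcn4 gln3. Changes in opposite directions were called for both genes, -0.94 ± 0.15 against 0.64 ± 0.15 and -0.95 ± 0.10 against 0.34 ± 0.10. The largest falls were those of FRS2 (-1.45 ± 0.15), of phenylalanyl-tRNA, and VAS1 (-1.27 ± 0.15), of valyl-tRNA. In gcn4 none of the 19 was higher and 16 were lower (median -0.91), with no difference from gcn4 gln3 called.

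Among 13 tested genes of vitamin B6, thiamine and biotin of 18 listed, 3 were higher and 8 lower (none and 8 under all 3 scalings; median -0.56). The biotin genes had the largest falls: BIO2, biotin synthase, read 908, 1131, 787 and 1255 in 3-AT and 4788, 5061, 6541 and 6564 untreated, and BIO5, a transporter of a biotin precursor, read 434, 335, 443 and 435 in 3-AT and 2040.2, 1505, 3181 and 2041 untreated. In both every 3-AT array was below every untreated array, and BIO4 (-2.15 ± 0.17) and the biotin transporter gene VHT1 (-1.53 ± 0.16) fell with them. Untreated gcn4 gln3 was below untreated wild type for 11 of the 13.

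**Figure D5:**
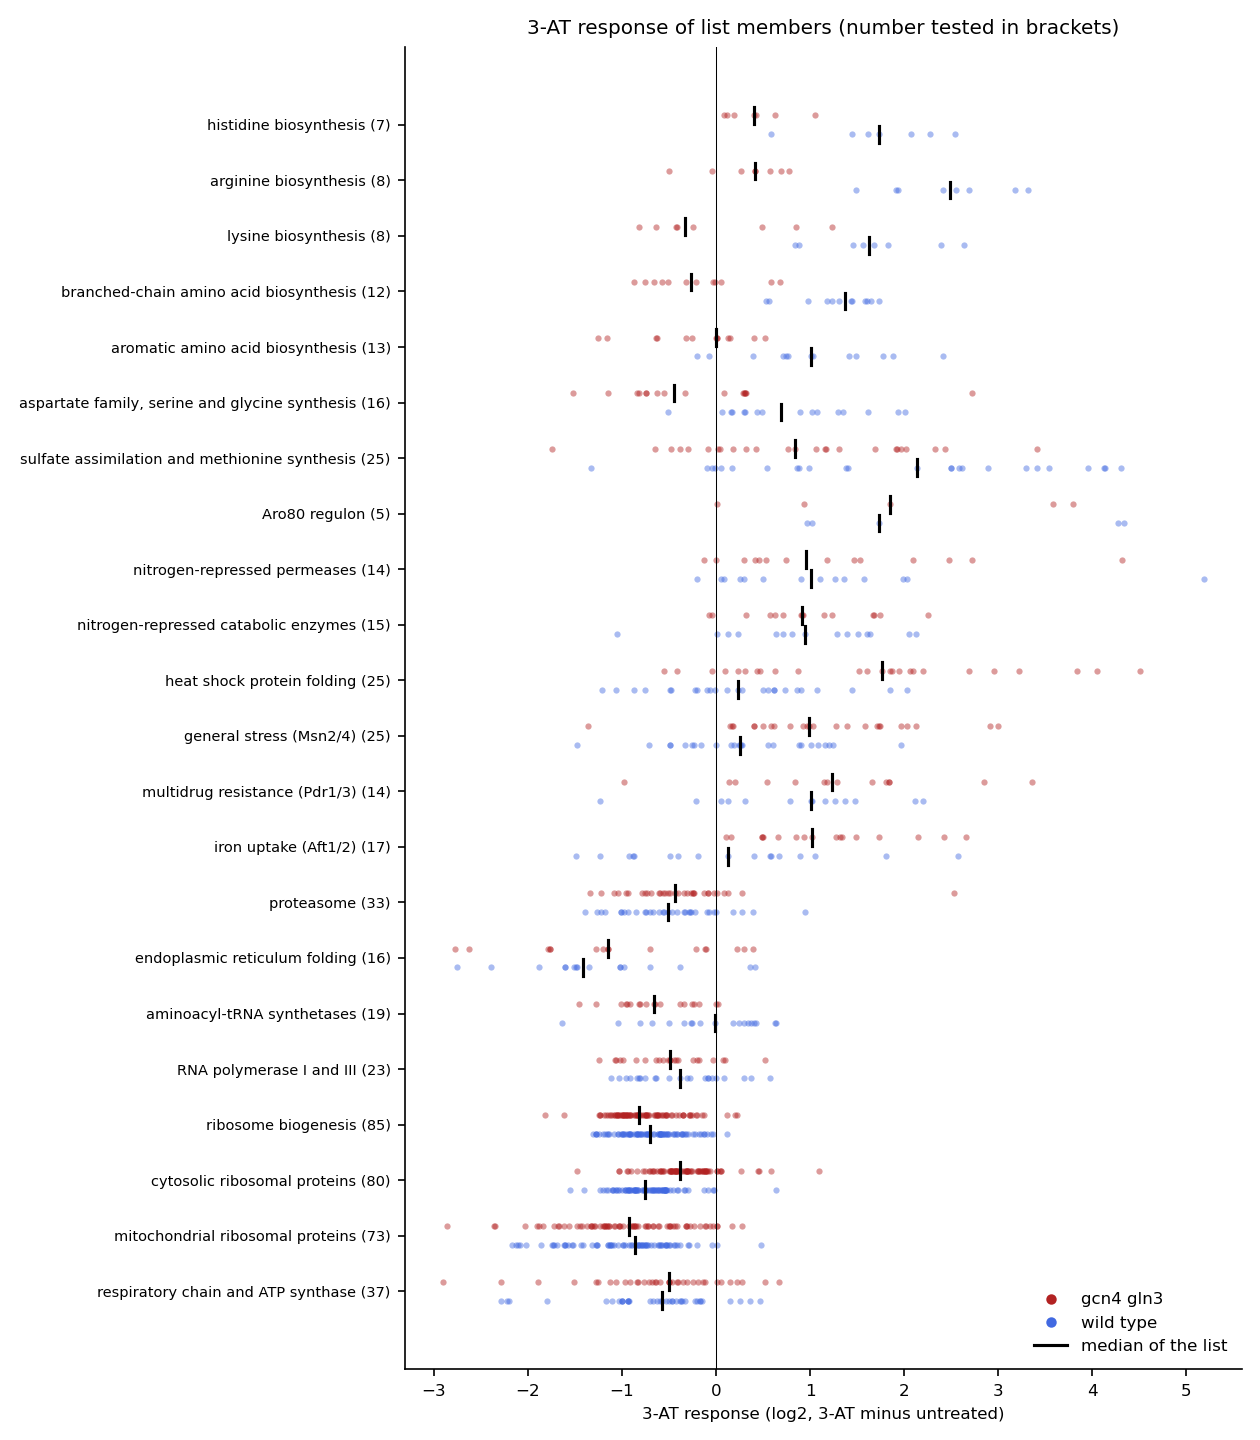
3-AT response (log2) of the tested members of 22 gene lists in gcn4 gln3 (upper row of points of each list) and wild type (lower row), with the median as a bar. Heat shock genes have a median of 1.76 in gcn4 gln3 and 0.23 in wild type, tRNA synthetases -0.65 and -0.01, branched-chain genes -0.26 and 1.37, and endoplasmic reticulum folding genes -1.15 and -1.41.

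The other lists held genes in both directions. In the G1/S list 7 of 25 were higher and 9 lower (4 and 9 under all 3 scalings), with RNR3, a ribonucleotide reductase subunit gene, at 2.05 ± 0.20, the cyclin gene PCL2 at 1.47 ± 0.17, SWI4, of the G1/S activator, at least 1.83-fold higher and above background only in 3-AT, and the cohesin gene SMC3 at -1.59 ± 0.15. In the G2/M list 2 of 14 were higher and 2 lower (none and 2 under all 3 scalings), against 5 higher and none lower in wild type. CDC20, an activator of the anaphase-promoting complex, read 629, 601, 490.01 and 643 in 3-AT and 669, 605, 641 and 613 untreated in gcn4 gln3, with overlap (-0.10 ± 0.14), and changed by 2.14 ± 0.14 in wild type. CLB1, a mitotic cyclin gene, fell by 1.67. Of 4 tested histone genes of 10 listed none was higher and 3 were lower (2 under all 3 scalings), among them the variant histone gene HTZ1 (-1.85 ± 0.16).

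Of 28 tested autophagy and vacuolar protease genes 15 were higher and 2 lower (7 and 2 under all 3 scalings; median 0.51). APE1, a vacuolar aminopeptidase gene, read 11184, 14840.1, 15832 and 11158 in 3-AT and 2828, 4008, 4499 and 4497 untreated, and ATG14 and ATG1, of autophagosome formation, rose by 1.48 ± 0.20 and 1.37 ± 0.22. ATG17, a scaffold gene, was above background only untreated, on 3 of 4 arrays, and the proteinase A gene PEP4 changed by -0.71 ± 0.17. In the retrograde and citrate cycle list 10 of 16 were higher and 1 lower (6 and 1 under all 3 scalings; median 0.57). CIT2, peroxisomal citrate synthase, read 4557, 5043, 4116 and 4105 in 3-AT and 1541, 1059, 2022 and 1419.6 untreated and changed by 1.59 ± 0.23 against 0.07 ± 0.23 in wild type, and FUM1, fumarase, fell by 1.32. Purine and one-carbon genes had 7 higher and 3 lower of 19 tested (4 and 2 under all 3 scalings; median 0.10), with the glycine cleavage gene GCV2 at 1.85 ± 0.15. Phosphate starvation genes had 5 higher and 2 lower of 12 tested (2 and 2 under all 3 scalings).

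Set against wild type, the response of gcn4 gln3 differed for 1011 probe sets (15.3%), with gcn4 gln3 higher for 576 (8.73%) and lower for 435 (6.59%), and with 332 (5.03%) and 432 (6.55%) under all 3 scalings. In the fit over all 72 arrays the count was 384, and the differences of HIS3, HIS4, HSF1, KAR2, SSA3, URE2, BIO2, COX17, DIP5, MET14, MHT1, SER3, TPO4 and GCV2 were among those not called. Without the 3 arrays of high actin ratio the count was 1054. Both genotypes were called higher for 1690 probe sets and lower for 1087. Of 337 probe sets higher in wild type with the difference lower, 131 were not called in gcn4 gln3, 137 were called higher and 69 called lower. The Pearson correlation of the 2 responses across the 6599 probe sets, which are not independent of each other, was 0.77.

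BTN2, CUR1, ROQ1, SSA3 and ADH2 were among the 10 genes with the largest differences that had gcn4 gln3 higher. PRR2, a protein kinase gene, was another, with 182, 159, 202 and 159 in 3-AT and 43.5, 33.8, 58.4 and 3.32 untreated in gcn4 gln3. No untreated gcn4 gln3 array was above background for PRR2, which was at least 2.34-fold higher in 3-AT. ADR1, the activator of ADH2, read 785, 896, 763 and 687 in 3-AT and 85.2, 91.2, 124 and 83.8 untreated in gcn4 gln3, and 134, 98.0, 136 and 128 in 3-AT and 143, 137, 169.99 and 133 untreated in wild type. The ADR1 groups were separate in gcn4 gln3 and overlapped in wild type, and the difference was 3.28 ± 0.26 (limma, adjusted p = 1.1e-10). YMR206W (3.08), NRE1 (2.60) and the thiamine synthesis gene THI4 (2.43) completed the 10. The 10 largest of the other sign were those of SRL4, ARO5 (-3.77), GGC1 (-3.28), SUL1 (-3.26), YMC1 (-3.18), RTC2 (-3.14), ECM13 (-3.09), YHI9 (-3.00), ORT1 (-2.91) and ASN1 (-2.86). Of these, GGC1, YMC1 and ORT1 encode mitochondrial carriers, of guanine nucleotides, of organic acids and of ornithine in that order. SRL4 was below background on all 8 gcn4 gln3 arrays and no value is given for its difference. RTC2 encodes a vacuolar transporter of cationic amino acids, and read 288, 204, 483 and 438 in 3-AT and 98.3, 91.0, 227 and 153 untreated in gcn4 gln3 against 7206, 5171, 6976 and 7809.7 in 3-AT and 267, 219.9, 481 and 299.99 untreated in wild type. The RTC2 groups overlapped in gcn4 gln3 and were far apart in wild type.

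Opposite directions were called in the 2 genotypes for 109 probe sets (1.65%), of which 93 had 1 named gene. Lower in gcn4 gln3 and higher in wild type were 65 of these genes, among them the biosynthetic genes ASN1, ASN2, ARG1, ILV1, ILV3, ILV6, LEU9, BAT1, LYS12, LYS20, LYS21, ARO2, ARO3, ARO4, TRP5, HOM2, THR1 and THR4 and the synthetase genes DPS1, ILS1, KRS1 and DED81. URE2, whose product holds Gln3 in the cytoplasm, was one of them, at -0.43 ± 0.16 in gcn4 gln3 against 0.91 ± 0.16 in wild type, though its gcn4 gln3 call was lost when single arrays were left out. Higher in gcn4 gln3 and lower in wild type were 28, among them the Hsp110 gene SSE1, the cochaperone gene SGT2, the glucokinase gene GLK1 and, with rises in gcn4 gln3 that were not called under all 3 scalings, THI4, FIT2, RPS9A and RPL15A.

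Set against gcn4, the difference in response was called for 36 probe sets (0.546%), with 6 higher and 30 lower in gcn4 gln3, and 523 had an unadjusted p under 0.05. Under all 3 scalings 4 were higher and 25 lower. The correlation across the 6599 probe sets was 0.93. Besides the 9 sulfur genes and CHA1, those lower included the sulfur regulator gene MET32, the sporulation gene SPS100 (-1.87), YGR035C, the stress gene GRE1 (-1.69), the recombination gene RAD59 (-1.65), APE1 (-1.16) and GLN3 itself, whose signal was below background in gcn4 gln3. MET32 and YGR035C were above background on no untreated gcn4 array, so no size is given for them. Lower here refers to the response and not to the level in 3-AT: SPS100 averaged 233 in 3-AT and 207 untreated in gcn4 gln3, against 259 in 3-AT and 71.7 untreated in gcn4. GRE1 averaged 655 in 3-AT and 1249 untreated in gcn4 gln3, against 564 in 3-AT and 330 untreated in gcn4, and APE1 averaged 13254 and 3958 in gcn4 gln3 against 9951 and 1314 in gcn4 in the same order. The untreated means of all 3 were higher in gcn4 gln3 than in gcn4, as were the 3-AT means of GRE1 and APE1; these level differences were not tested. MET22 (-0.63), which removes a by-product of sulfate reduction, the methionine sulfoxide reductase gene MXR1 (-1.27) and the peptide transporter gene OPT1 (-1.53) were also lower, and were singled out after their values were seen. Higher were ARG1 (1.03), ADR1 (1.13), GCV2 (1.18), SNO1, GAL4 and 1 probe set of no single gene. The calls of ARG1, GAL4, GLN3, YGR035C and MET22 did not hold under all 3 scalings. SNO1 and GAL4 were below background on all 8 gcn4 gln3 arrays, so no size is given for their differences. The ADR1 change was 3.04 ± 0.18 in gcn4 gln3, 1.91 ± 0.18 in gcn4, 0.02 ± 0.18 in gln3 and -0.24 ± 0.18 in wild type. Only part of these genes was checked for lost calls. Outside the 9 sulfur genes, those checked that lost their call when single arrays were left out were ADR1, ARG1 and MET32. Over all 72 arrays APE1, ADR1, ARG1 and MET32 lost theirs. In that fit 13 probe sets were called, and 45 without the 3 arrays of high actin ratio.

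Set against gln3, 1298 probe sets (19.7%) differed, 662 (10.0%) with gcn4 gln3 higher and 636 (9.64%) lower. Under all 3 scalings 487 were higher and 613 lower. The correlation of the responses was 0.70. In the fit over all 72 arrays 469 differed, and 1338 without the 3 arrays of high actin ratio. The genes lower in gcn4 gln3 were led by RTC2 (-3.55), ARO5 (-3.52), SNX41 (-3.52), ASN1 (-3.23), ARG1 (-3.23), SUL1, SRL4, SNO1, YMC1 (-3.10) and YHI9 (-3.02). Higher in gcn4 gln3 were PRR2, ADR1 (3.02), CUR1 (2.91), DAN1, YHR022C (2.57), PTR2 (2.57), the formate dehydrogenase gene FDH1 (2.46), OPI10 (2.43), ECL1 (2.43) and ROQ1 (2.43). No size is given for SUL1, SRL4, SNO1, PRR2 and DAN1, each of which was above background on no array of at least 1 of the 4 groups. Of 8 arginine genes all 8 differed with gcn4 gln3 lower, as did 6 of 7 histidine genes. In iron uptake 6 genes differed with gcn4 gln3 higher.

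The untreated arrays differed between gcn4 gln3 and wild type for 285 probe sets (4.32%), with 92 higher and 193 lower in gcn4 gln3. Under all 3 scalings 70 were higher and 142 lower. A response difference can therefore hold a difference of the untreated level, as for the 5 arginine, 6 general stress, 6 iron and 11 vitamin genes above. For BTN2, HSP82 and ASN1 the untreated difference, gcn4 gln3 minus wild type, was 0.17 ± 0.29, -0.04 ± 0.26 and -0.84 ± 0.17 (limma, adjusted p = 0.82, 0.97 and 0.0031).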

How the data were processed

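The deposited values are intensity, as linear signals of 9335 probe sets; GCOS and MAS5 are the tools named in the submitters' processing notes, without versions or scaling settings. Per the labels, hot phenol total RNA (5 ug) was made into biotinylated cRNA. Control probe sets (60) were left out and the brightest of several probe sets of a gene was kept. Tested were the 6599 probe sets above the array's 30th percentile on at least 4 of 32 arrays, 5346 of them of 1 named gene. A floor of 16.5 (10th percentile of the table) was set under the signals before taking log2. The fit used limma 3.58.1 (lmFit, eBayes) in R 4.3.3 with 8 group means, 24 residual degrees of freedom and Benjamini-Hochberg adjustment over all probe sets tested. It was tested on simulated data. Where no array of a group was above background, the fold is a lower bound. The array count limits precision.

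The members and gene lists were chosen with earlier results of these data known. Genes named are GCN4, GLN3, GCN2, HIS3 and actin, the 15 largest rises and falls and 5 largest bounds, members of lists of up to 26 genes, the 4 largest changes each way of longer lists, the 10 largest response differences each way, and genes called in opposite directions. A planned search of promoters for motifs was not run, as it needs promoter sequences.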

Additional observations from a re-analysis of the deposited data

Results flagged for a closer look

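In 6 of 193 groups of 4 arrays examined, 1 array stood apart from the other 3 by Dixon's test, which chance does in about 1 of 20 groups. Untreated gcn4 gln3 replicate 3 was high for TPS2, at 1984 against 828, 869 and 954, and for HXK1, at 9819 against 4373, 4650.25 and 4754. In 3-AT, gcn4 gln3 replicate 4 was low for TPO4, at 3362.5 against 4046, 4070.31 and 4191, and replicate 2 was low for BIO5, at 335 against 434, 435 and 443. Untreated replicate 2 was low for SIL1, at 2296 against 2719.8, 2751 and 2814, and untreated replicate 1 was high for ILS1, at 3430.49 against 2535, 2580.22 and 2599.58.

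The 3-AT response of gcn4 gln3 differed from that of wild type for 1011 probe sets, from that of gcn4 for 36 and from that of gln3 for 1298 (limma, interaction contrasts). Among probe sets of 1 named gene the fitted differences at each end were 3.43 for BTN2 and -3.90 for SRL4 against wild type, 1.43 for GAL4 and -2.45 for STR3 against gcn4, and 3.99 for PRR2 and -3.55 for RTC2 against gln3. SRL4 and GAL4 were below background on all 8 gcn4 gln3 arrays and PRR2 on the 4 untreated ones, so these 3 values depend on the floor set under the signals and have no rank.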

How the results depend on the processing

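Reversals and lost calls were looked for in part of the genes with values in the text. Among these, no called direction reversed in any alternative run. The other genes and probe sets were not checked for reversals. The gcn4 gln3 response was called for 2853 to 4402 probe sets over the alternatives; over all 72 arrays 1912 were higher and 941 lower. The difference from wild type moved to 384 and from gln3 to 469 over all 72 arrays. The median residual SD was 0.400 over the 72 arrays and 0.264 over the 32. Without 3 of the 72 arrays with high actin ratios it was 0.271 and the counts were 4031 for the response and 1054, 45 and 1338 for the differences from wild type, gcn4 and gln3. The difference from gcn4 moved to 13 over all 72 arrays and to 22 without both gcn4 gln3 replicate 1 arrays, a setting chosen after seeing the data. Leaving out 1 array gave 3791 to 3951 calls for the response, 855 to 1072 for the difference from wild type, 21 to 49 from gcn4 and 1086 to 1379 from gln3; the lowest from gcn4 came without gcn4 gln3 untreated or 3-AT replicate 2 and the highest without untreated replicate 3. With the replicate number as a block the counts were 4402, 1444, 99 and 1833; deviations of same-numbered gcn4 gln3 arrays correlated at 0.71, -0.13, 0.44 and 0.12, and those of gcn4 at 0.38, 0.27, 0.36 and 0.20, of gln3 at 0.45, 0.15, 0.53 and 0.21 and of wild type at 0.22, -0.12, 0.38 and -0.09. As 1 gcn4 gln3 pair was below 0.1, the numbers were not taken to pair arrays, although 2 of 4 pairs in gcn4 gln3, 3 in gcn4, 2 in gln3 and 1 in wild type correlated best with their own number. Scaling changed the split of differences from wild type to 363 higher and 535 lower after median centring and 545 and 548 after quantile normalization, and from gln3 to 543 and 751 after median centring. Of the values of the checked genes under the alternatives, 9239 had the outcome of the main fit, which includes values called in neither. Another 226 lost a call and 62 gained one. Probe sets near background are limited by signal: 5200 of the 6599 were above it on all 32 arrays.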
